A study of Mus musculus with 6 samples.

Results

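The genes described here encode 10 enzymes of glycolysis and of lactate formation: Hk1, Hk2, Aldoa, Tpi1, Gapdh, Pgk1, Pgam1, Eno1, Pkm and Ldha. They were chosen by name, as the entries of a deposited count table whose Ensembl gene identifiers belong to these symbols, and are 10 of its 47069 genes. All 10 passed the filter on low counts. The table comes from bulk RNA-seq of LβT2 cells, an immortalized mouse line derived from pituitary gonadotropes, the cells that make luteinizing hormone and follicle-stimulating hormone. It was made to ask whether RNA-Best, a cell preservation reagent, keeps the transcriptome of fresh cells. In 3 libraries the cells were fresh, that is, lysed in a guanidium buffer right after harvest, with the lysate then stored frozen. In the other 3 the cells had been kept in RNA-Best at 4 °C for 4 days or more and were then lysed in the same buffer. Cells of both groups were at passage 14, had received 2 nM gonadotropin-releasing hormone (GnRH) for 40 min and were trypsinized and pelleted. An untreated group was not analysed here, so no value below measures a response to GnRH. LβT2 is 1 cell line, and it is not stated that replicate libraries were grown as separate cultures, so the p-values measure the spread between libraries, which may be technical.

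Glycolysis splits glucose into pyruvate in the cytosol and yields ATP and NADH, and lactate dehydrogenase then regenerates NAD+ by turning pyruvate into lactate. Hexokinases trap glucose as glucose 6-phosphate, aldolase and triose phosphate isomerase make glyceraldehyde 3-phosphate, and the enzymes of the lower pathway pass from that sugar to pyruvate. The enzymes of the lower pathway are among the most abundant proteins of many cells, several of their messenger RNAs are used as references in expression assays, and retroposed copies of them lie scattered through the mouse genome.

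Levels are given as CPM, the count of a gene per 1000000 counts of its library. Depth ranged from 4909418 to 47438746 counts, and the shallowest fresh library held more counts than the deepest RNA-Best library. In all 6 libraries the gonadotrope genes Cga, at 1410 to 1830 CPM, Nr5a1, Gata2, Gnrhr and Lhb were detected, whereas Fshb had 0 counts. Of the markers of other pituitary lineages, Prl and Pou1f1 had 0 counts, Gh, Pomc and Tbx19 had at most 3 counts each over the 6 libraries, and Tshb reached 2.28 CPM. The mitochondrially encoded genes held 5.05% to 5.24% of the counts in fresh and 4.97% to 5.3% in RNA-Best libraries.

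Several of these messenger RNAs are copied elsewhere in the genome, which bears on the counting of their reads. The next sequences show this, and are stretches of 90 bases from the centre of the coding part of the main GENCODE transcript (GRCm38), beside the same stretch of a processed pseudogene. A base in capitals is one that differs. Gapdh lies on chromosome 6 and Gm13394 on chromosome 2, and the stretches differ at 0 positions.
Gapdh: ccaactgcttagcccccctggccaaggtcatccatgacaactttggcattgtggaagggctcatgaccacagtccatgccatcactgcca
Gm13394: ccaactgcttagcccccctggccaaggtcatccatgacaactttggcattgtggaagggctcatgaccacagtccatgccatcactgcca
Pgk1 lies on chromosome X, with copies Pgk1-rs7 on chromosome 12 and Gm5537 on chromosome 3, and all 3 sequences are the same.
Pgk1: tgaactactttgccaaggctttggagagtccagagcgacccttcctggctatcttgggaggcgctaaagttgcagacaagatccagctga
Pgk1-rs7: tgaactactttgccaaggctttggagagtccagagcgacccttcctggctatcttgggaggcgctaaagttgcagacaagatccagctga
Gm5537: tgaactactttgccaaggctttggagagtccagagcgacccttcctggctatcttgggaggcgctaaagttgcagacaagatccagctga
Pkm, on chromosome 9, and Gm6560, on chromosome 5, differ at 1 position, which is in capitals.
Pkm: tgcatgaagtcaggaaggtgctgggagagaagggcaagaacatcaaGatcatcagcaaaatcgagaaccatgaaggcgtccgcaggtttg
Gm6560: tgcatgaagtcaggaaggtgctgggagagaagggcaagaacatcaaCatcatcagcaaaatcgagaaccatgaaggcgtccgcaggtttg

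Over the whole main transcript, 79.0% of the 90-base windows of Gapdh (1051 of 1331) were found letter for letter in a transcript of another gene. Such windows touched 87 other genes, up to 40 for a single window. The share was 67.2% for Pgk1, 61.3% for Eno1, 40.1% for Pgam1 and 9.05% for Pkm, 1.45% for Tpi1 and 1.07% for Ldha, and 0 windows were shared for Aldoa, Hk1 and Hk2. The deposited counts followed this order in part. Counts that were not whole numbers, as arise when a read is divided among genes, stood in 0 of the 6 libraries for Hk2, in 2 for Hk1, in 4 for Aldoa and in all 6 for the other 7 genes.

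Together the 10 genes held 1.287%, 1.335% and 1.366% of all counts in the fresh libraries and 1.204%, 1.138% and 1.107% in the RNA-Best libraries. Every RNA-Best library was below every fresh library, with a mean of 1.15% ± 0.0492 (SD, n = 3) against 1.329% ± 0.0398 (SD, n = 3). In bulk libraries, fewer cells that express a gene and less of its RNA per cell cannot be told apart. Within the fresh group library 3 was highest for 8 of the 10 genes and library 1 lowest for 7. Within the RNA-Best group library 1 was highest for 9 and library 3 lowest for 8.

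**Figure D1:**
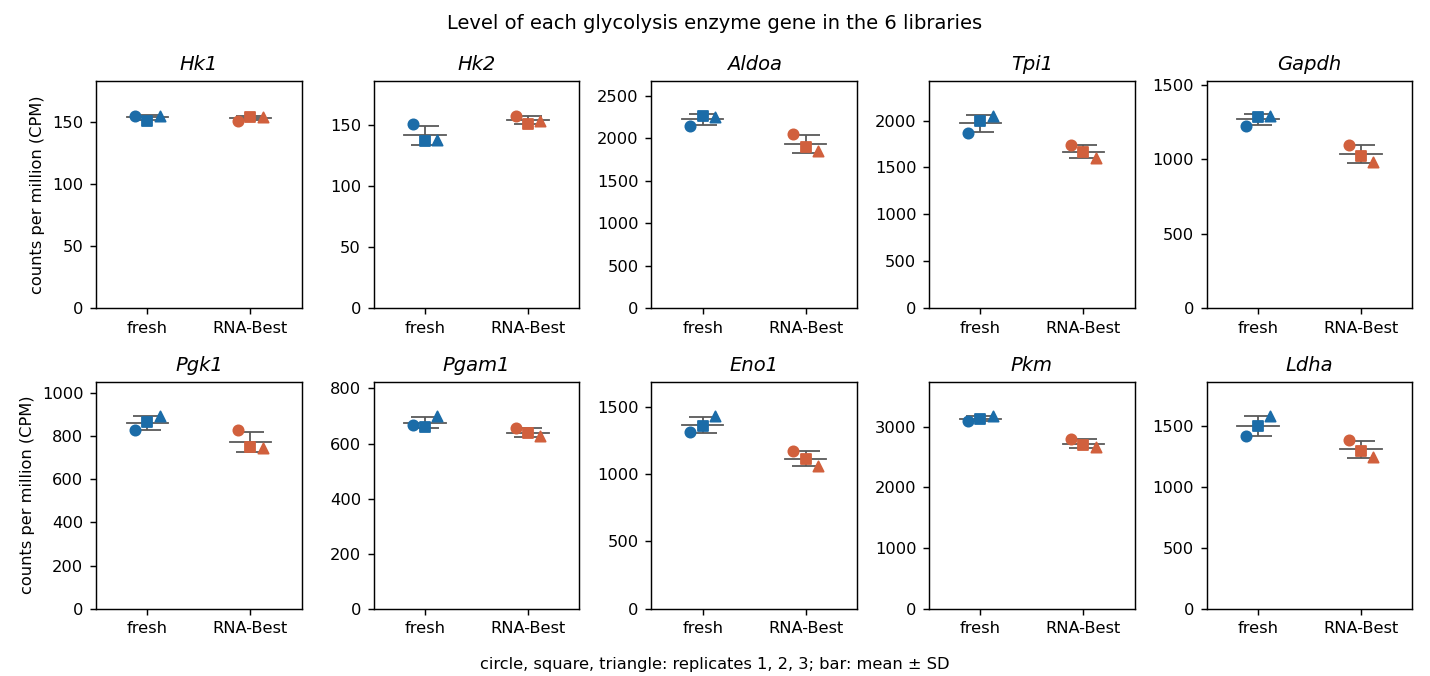
CPM (vertical axes, each from 0) of the 10 genes in fresh (blue) and RNA-Best (orange) libraries, 3 per group, with circle, square and triangle for replicates 1, 2 and 3 and bars for the mean ± SD. In 8 panels all orange points lie below all blue ones, Hk1 overlaps, and in Hk2 the RNA-Best points are above.

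Expression in RNA-Best was compared with fresh in 1 edgeR quasi-likelihood fit to all genes, with Benjamini-Hochberg adjustment and a false discovery rate of 5%. Of the 10 genes, 8 were lower in RNA-Best, 1 was higher and 1 did not pass, and the log2 fold changes had a median of -0.21. Among all 14736 tested genes 24.8% were lower and 26.0% were higher, with a median of -0.01. The CPM of the groups did not overlap, with RNA-Best below fresh, for 8 of the 10 genes, against 27.1% of all tested genes, and with RNA-Best above fresh for 1, against 30.4%. The 8 genes decreased by 6.09% to 19.3%. Against a 1.2-fold change (glmTreat), 0 of the 10 genes were lower and 0 higher, beside 416 lower and 1277 higher of all genes.

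At the top of the pathway are the hexokinases, which phosphorylate glucose. Hk1, the broadly expressed hexokinase (chromosome 10, 62268855 to 62379908, minus strand, GRCm38), stood at 155, 151 and 155 CPM in the fresh libraries and at 151, 154 and 155 CPM in the RNA-Best libraries. The groups overlapped. The log2 fold change was -0.02 with a 95% confidence interval from -0.08 to 0.05 (edgeR, adjusted p = 0.681), which leaves room for a small difference in either direction.

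Hk2, the hexokinase typical of muscle and of many proliferating cells (chromosome 6, 82725025 to 82774454, minus strand), was the only member called higher, a call that turned to lower with an offset for main transcript length and was absent with one for exon length, as given below. It had 150, 136 and 137 CPM in fresh and 157, 151 and 153 CPM in RNA-Best libraries. Fresh 1 stood above the other fresh libraries and nearly reached the lowest RNA-Best value, and with TMM-scaled CPM the groups overlapped. The log2 fold change was 0.11 ± 0.0379 (SE, edgeR, adjusted p = 0.0185). Without fresh 2, fresh 3 or RNA-Best 1, left out in turn, the test did not pass, at 0.07 (adjusted p = 0.152), 0.09 (adjusted p = 0.056) and 0.09 (adjusted p = 0.103). In counts per kilobase of main transcript, Hk2 to Hk1 had a ratio of 0.677, 0.629 and 0.616 in fresh and 0.726, 0.682 and 0.692 in RNA-Best libraries. A two-sided exact permutation test gave p = 0.1, the least that 3 against 3 can give, and an adjusted p of 0.175 over 7 ratios.

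Aldoa encodes the aldolase that splits fructose 1,6-bisphosphate (chromosome 7, 126795234 to 126800751, minus strand). It had 2145, 2263 and 2247 CPM in fresh libraries and 2049, 1892 and 1847 CPM in RNA-Best libraries. The groups were apart, and fresh 1 was closest to the RNA-Best libraries. The log2 fold change was -0.21 ± 0.0304 (SE, edgeR, adjusted p = 2.81e-07). Tpi1, which interconverts the triose phosphates (chromosome 6, 124810586 to 124814296, minus strand), fell from 1873, 1992 and 2053 CPM to 1741, 1670 and 1599 CPM, again with no overlap. For it the log2 fold change was -0.25 ± 0.031 (SE, edgeR, adjusted p = 1.47e-08).

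Gapdh encodes the enzyme that oxidizes glyceraldehyde 3-phosphate and makes the NADH of the pathway (chromosome 6, 125161715 to 125166467, minus strand). It had 1226, 1283 and 1293 CPM in fresh and 1097, 1023 and 981 CPM in RNA-Best libraries. All 3 RNA-Best libraries were below all 3 fresh ones. The log2 fold change was -0.31 ± 0.031 (SE, edgeR, adjusted p = 2.31e-10), a decrease by 19.2%. Pgk1, phosphoglycerate kinase, the first ATP-forming step (chromosome X, 106187100 to 106203699, plus strand), had 827, 868 and 892 CPM in fresh and 826, 748 and 746 CPM in RNA-Best libraries. RNA-Best 1 nearly reached fresh 1, at 826.45 against 826.55 CPM. The log2 fold change of Pgk1 was -0.17 ± 0.0322 (SE, edgeR, adjusted p = 4.21e-05).

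Pgam1, phosphoglycerate mutase (chromosome 19, 41911923 to 41918660, plus strand), showed the smallest of the 8 reductions. Its level was 667, 661 and 699 CPM in fresh and 656, 639 and 626 CPM in RNA-Best libraries. The nearest values of the groups were 660.69 CPM in fresh 2 and 655.78 CPM in RNA-Best 1. The log2 fold change was -0.09 ± 0.0283 (SE, edgeR, adjusted p = 0.00745), and without RNA-Best 3 it was -0.07 and did not pass (adjusted p = 0.0862). Eno1, enolase (chromosome 4, 150236721 to 150248879, plus strand), changed as much as Gapdh, from 1312, 1361 and 1430 CPM to 1171, 1109 and 1061 CPM. Its log2 fold change was -0.31 ± 0.0315 (SE, edgeR, adjusted p = 2.93e-10), a decrease by 19.3%.

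Pkm, pyruvate kinase, forms pyruvate and the second ATP (chromosome 9, 59656368 to 59679375, plus strand). Its isoforms M1 and M2 differ in 1 exon and are counted as one gene, so they cannot be told apart here. Pkm had the most counts of the set, 3093, 3135 and 3173 CPM in fresh and 2802, 2699 and 2660 CPM in RNA-Best libraries. The spread within each group was small beside the distance between them, and the log2 fold change was -0.22 ± 0.0265 (SE, edgeR, adjusted p = 1.47e-08). Ldha, the lactate dehydrogenase subunit that favours lactate (chromosome 7, 46841475 to 46855627, plus strand), had 1423, 1502 and 1582 CPM in fresh and 1386, 1294 and 1248 CPM in RNA-Best libraries. Relative to its mean, Ldha varied most of the 8 lower genes in the fresh group, with a coefficient of variation of 5.28%, and its log2 fold change was -0.21 ± 0.0331 (SE, edgeR, adjusted p = 1.6e-06).

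Per kilobase of main transcript, the level in fresh libraries ran from Aldoa, at 1468 ± 42.4 CPM per kilobase (SD, n = 3), over Pkm at 1288 ± 16.4 and Tpi1 at 1227 ± 57.1, whose ranges overlapped. Gapdh at 892.5 ± 25.6 and Ldha at 850.8 ± 45.0 also overlapped. Eno1, Pgk1 and Pgam1 followed in that order without overlap, and Hk1 at 39.99 ± 0.578 and Hk2 at 25.62 ± 1.43 were lowest. Both hexokinases were below every downstream enzyme of the set. This order holds for the own entry of each gene. With the counts of the copies described below added, Gapdh came first, at 1626 ± 44.8 CPM per kilobase (SD, n = 3), above Aldoa, and Eno1 at 1006 ± 40.7 stood above Ldha at 861.6 ± 44.2.

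A fold change can also be set beside those of genes of like length and level, because both properties moved with the difference between groups. Genes with a main transcript over 1 to 2 kb, the range of 6 of the members, were lower in 44.2% and higher in 7.69% of cases, and those over 4 to 10 kb were lower in 5.15% and higher in 58.8%. Of the 171 genes at 500 CPM or more, 66.7% were lower and 19.3% higher. Under 10 CPM the shares were 7.99% and 15.5%, so genes were called less often at low level. Of the 53 genes with both properties, members left out, 81.1% were lower and 1.89% higher, with a median log2 fold change of -0.25. The members of that class, Aldoa, Tpi1, Gapdh, Pgk1, Pgam1 and Ldha, were all lower, 6 of 6. Eno1 and Pkm have main transcripts over 2 to 4 kb, and of the 58 other genes of that length at 500 CPM or more, 65.5% were lower and 15.5% higher, with a median of -0.11. For Hk1 and Hk2 the matching class, 100 to under 500 CPM and 2 to 10 kb, held 1709 other genes, of which 26.8% were lower and 43.1% higher.

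**Figure D2:**
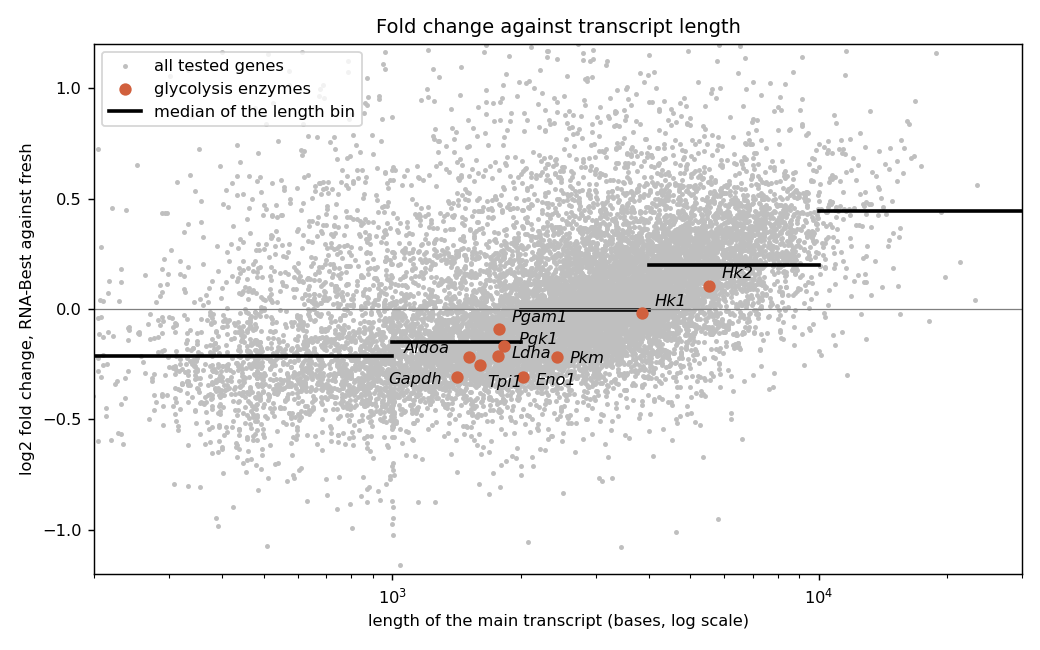
Length of the main transcript (horizontal axis, bases, log scale) against the log2 fold change of RNA-Best against fresh (vertical axis, limited to -1.2 to 1.2), with tested genes in grey, the 10 enzymes in orange and bars for the median of each length bin. Apart from Pgam1 at -0.09, the enzymes called lower lie below the medians of their bins, -0.15 at over 1 to 2 kb and -0.01 at over 2 to 4 kb, and Hk2 lies below the median of 0.20 at over 4 to 10 kb.

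With an offset that removes the trend of level with main transcript length in each library, the 7 enzymes other than Pgam1, Hk1 and Hk2 stayed lower by edgeR, and the median of the 10 genes moved from -0.21 to -0.13. Pkm was at -0.21, Eno1 at -0.26 and Gapdh at -0.21. Tpi1 went from -0.25 to -0.17, Aldoa from -0.21 to -0.12, Pgk1 from -0.17 to -0.10 and Ldha from -0.21 to -0.14, each over 1.5 times smaller than without the offset. Hk2 turned to -0.11 (edgeR, adjusted p = 0.0194), Hk1 to -0.12 (adjusted p = 0.00265) and Pgam1 to -0.02 (adjusted p = 0.641). With the summed exon length of all transcripts in place of the main transcript, Hk1 was -0.22 (edgeR, adjusted p = 1.66e-06), Hk2 0.01 (adjusted p = 0.925) and Pgam1 0.00 (adjusted p = 0.915). Pgk1 was at -0.08 in that fit and still passed (edgeR, adjusted p = 0.0329). Hk1, Hk2 and Pgam1 thus changed call with the treatment of length, whereas the calls of the other 7 did not change in these offsets. An offset for GC content put Aldoa at -0.12 (edgeR, adjusted p = 0.000196) and ended the call of Pgam1, at -0.05 (adjusted p = 0.162).

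**Figure D3:**
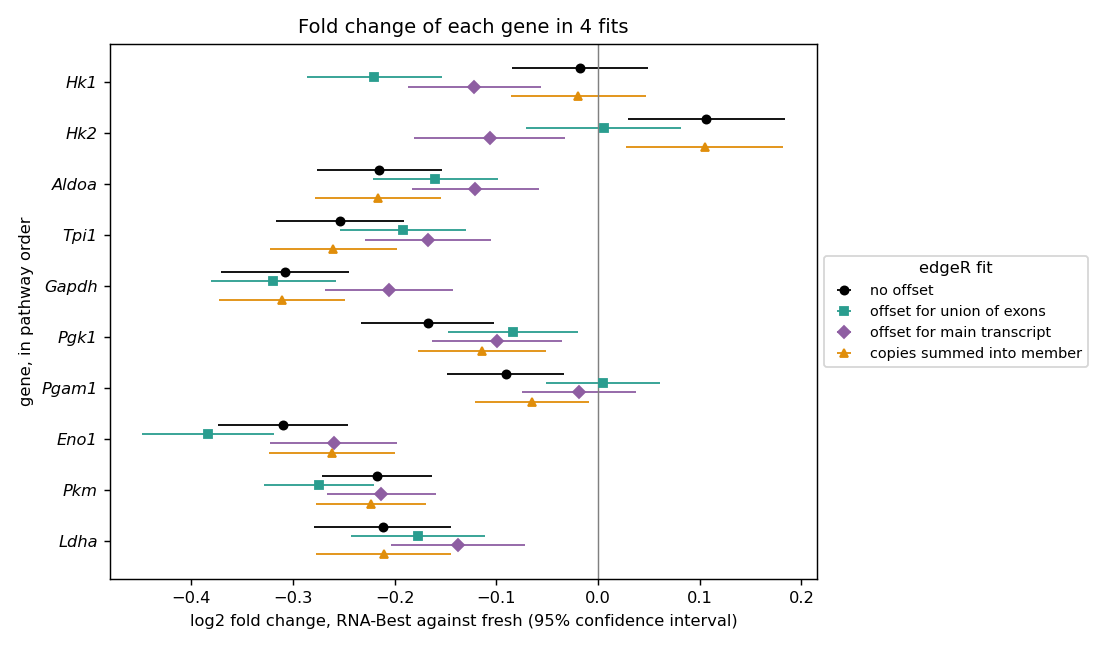
Log2 fold change of RNA-Best against fresh (horizontal axis, with 95% confidence interval) of each gene (vertical axis, in pathway order) without offset, with an offset for summed exon length or main transcript length, and with near-identical copies summed into the gene. The intervals of 7 genes stay below 0 in all 4 fits, and those of Hk1, Hk2 and Pgam1 do not.

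Copies with at least 95% identity over 200 bases numbered 127, of which 125 had counts and 115 were tested. Of these, 37 were lower (32.2%, against 24.8% of all tested genes) and 0 were higher by edgeR. Most belonged to Gapdh, with 115 copies, 103 tested and 31 lower. The copies of Gapdh held nearly as many counts as Gapdh itself. The own entry of Gapdh carried 54.9% of the sum in fresh and 55.0% in RNA-Best libraries on average. Gm13394 was the most counted copy, at 390, 410 and 399 CPM in fresh and 364, 325 and 325 CPM in RNA-Best, a log2 fold change of -0.25 (edgeR, adjusted p = 5.97e-08). Gm12033 and Gm5559 were both at -0.40, with nearly the same CPM in each library. Near-identical copies may share divided reads, so the 115 tested copies are not separate observations. Whether a copy's counts came from its own transcript or from the gene's reads was not tested.

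Among the other members, some copies were called lower, as the gene was, and others did not pass. For Pgk1, the own entry held 56.5% to 56.7% of the sum in fresh and 54.1% to 54.8% in RNA-Best libraries, with no overlap. Its copy Pgk1-rs7 had a log2 fold change of -0.09 (edgeR, adjusted p = 0.0221) and Gm5537 of 0.03 (adjusted p = 0.493). Summing gene and copies moved Pgk1 from -0.17 to -0.11 (edgeR, adjusted p = 0.00226). For Pgam1, the copy Pgam1-ps2 had a log2 fold change of 0.04 (edgeR, adjusted p = 0.357) and the sum had -0.07 (adjusted p = 0.0474). For Eno1 the sum was -0.26, with Eno1b, a protein-coding relative, and Gm4735 both at -0.16, and the own share went from 67.1% to 64.8%. In Pkm, Tpi1 and Ldha the own entry held on average 94.1% or more of the counts, and Aldoa, Hk1 and Hk2 had 0 copies at this identity. The copies Gm6560 of Pkm and Tpi-rs11 of Tpi1 fell by 0.29 and 0.40 on the log2 scale (edgeR, adjusted p = 1.8e-08 and 3.1e-08).

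**Figure D4:**
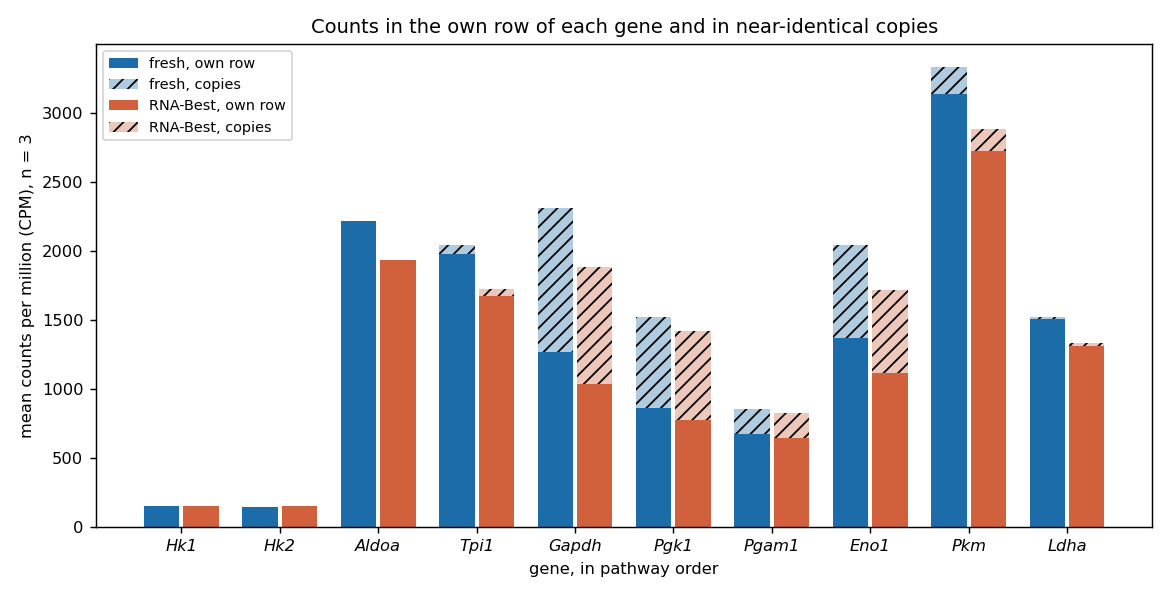
Mean CPM (vertical axis, n = 3) in the entry of each gene (solid) and summed over its copies of at least 95% identity (hatched, stacked) in fresh (blue) and RNA-Best (orange) libraries. Copies add most to Gapdh, Pgk1 and Eno1, and RNA-Best stacks are the lower ones for every gene with copies.

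Genes on the opposite strand overlap some members, and a strand setting of the counting is not given in the sources used here, so reads cannot be assigned with certainty. Fam57b overlaps Aldoa and had a log2 fold change of -0.29 (edgeR, adjusted p = 8.6e-07), Spsb2 overlaps Tpi1 and had -0.40 (adjusted p = 4.78e-05), and Iffo1 overlaps Gapdh and had 0.12 (adjusted p = 0.0202). Their levels, 83.6, 20.3 and 64.2 CPM in fresh libraries, were small beside those of the enzymes. Hk1os at 2.06 CPM and Gm17034 near Hk2 at 1.21 CPM were smaller still.

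Genes of 8 lists of linked enzymes, transporters and regulators were counted alongside the set. Of 72 tested genes among 88, 24 were lower (33.3%) and 15 higher (20.8%), with a median log2 fold change of -0.07, beside 24.8% lower and 26.0% higher among all tested genes. The lists are small, and their counts below are to be read against those shares. The calls over all lists were 25 lower and 11 higher with the exon length offset, 29 and 9 with the main transcript offset, and 28 and 12 with the GC offset. Of all 14736 tested genes, 3643 were lower and 2342 higher with the exon length offset, and 3615 and 2264 with the main transcript offset. With the GC offset 3874 were lower and 3214 higher. List counts with an offset are to be read against these. Among other isozymes, 3 of 10 were lower and 0 higher. Aldoc, an aldolase of neurons, had a log2 fold change of -0.14 (edgeR, adjusted p = 0.00558) and Eno2, the neuronal enolase, of -0.11 (adjusted p = 0.0148), which became -0.05 (adjusted p = 0.325) with the GC offset. Per kilobase, Aldoa exceeded Aldoc 56.0-fold in fresh and 53.1-fold in RNA-Best, Eno1 exceeded Eno2 21.6-fold and 18.9-fold, and Ldha exceeded Ldhb 18.1-fold and 18.3-fold. None of the 7 isozyme and transporter ratios could pass a p of 0.05 in this design (exact permutation tests, two-sided, adjusted p between 0.175 and 0.9).

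Among enzymes of the remaining steps, 3 of 6 were lower and 2, Pfkp at 0.18 and Adpgk at 0.16, were higher. With the exon length offset Pfkp turned to -0.16 and was called lower (edgeR, adjusted p = 0.00143), and Adpgk was at -0.08 and did not pass (adjusted p = 0.275). With the main transcript offset Pfkp was at 0.06 and did not pass (edgeR, adjusted p = 0.215), and Adpgk was at 0.16 and passed (adjusted p = 0.0184). With the GC offset Adpgk was at 0.09 and did not pass (edgeR, adjusted p = 0.157). Gpi1, which makes fructose 6-phosphate, was lower by a log2 fold change of -0.12 (edgeR, adjusted p = 0.000901), and so was the muscle phosphofructokinase Pfkm at -0.15 (adjusted p = 0.000357). Gpi1 was at -0.07 (edgeR, adjusted p = 0.0405) with the GC offset and at -0.25 (adjusted p = 4.88e-08) with the exon length offset. Regulators of phosphofructokinase, which make or remove fructose 2,6-bisphosphate, had 0 lower and 2 higher of 5. Pfkfb2 had 15.96, 15.22 and 15.40 CPM in fresh and 25.76, 23.02 and 23.42 CPM in RNA-Best libraries, for a log2 fold change of 0.62 (edgeR, adjusted p = 3.15e-09), the largest in the lists. Pfkfb3 had 0.17 (adjusted p = 0.00158) but 0.01 (adjusted p = 0.884) with the main transcript offset and -0.0013 (adjusted p = 0.986) with the exon length offset. With the GC offset Pfkfb3 was at 0.18 and passed (edgeR, adjusted p = 0.000752). Tigar, which breaks down fructose 2,6-bisphosphate, was at 0.10 and did not pass (edgeR, adjusted p = 0.168). Glucose and lactate transporters had 3 lower and 0 higher of 7. They included Slc16a3, a lactate exporter, at -0.11 (edgeR, adjusted p = 0.00223), and its chaperone Bsg at -0.23 (adjusted p = 3.53e-08). With the GC offset Slc16a3 was at -0.01 and did not pass (edgeR, adjusted p = 0.774), and with the main transcript and exon length offsets it was at -0.25 and -0.18 (adjusted p = 3.81e-08 and 8.49e-06).

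Pyruvate entry into mitochondria and pyruvate dehydrogenase held 4 lower and 4 higher of 12 tested genes. Pdhb, a subunit of that complex, was at -0.19 (edgeR, adjusted p = 2.69e-06), and its partner subunit Pdha1 was at 0.23 (adjusted p = 4.56e-06) and called higher in all 3 offsets. With the GC offset Pdha1 was at 0.13 (edgeR, adjusted p = 0.00426). Pdk1, a kinase that inhibits the complex, was at 0.29 (edgeR, adjusted p = 1.74e-08). The list had 3 lower and 4 higher with the exon length offset, 4 and 2 with the main transcript offset, and 7 and 3 with the GC offset. Pdp2, a phosphatase that activates the complex, was at 0.54 (edgeR, adjusted p = 0.00106) at a level of 3.59 to 5.75 CPM. With the main transcript offset Pdp2 was at 0.32 and did not pass (edgeR, adjusted p = 0.0657). With the exon length and GC offsets it was at 0.45 and passed (edgeR, adjusted p = 0.00683 and 0.00507). In the pentose phosphate pathway, which branches at glucose 6-phosphate, 5 of 8 were lower and 0 higher. Tkt and Taldo1, transketolase and transaldolase, were at -0.24 and -0.21 (edgeR, adjusted p = 1.12e-09 and 9.52e-08). Of gluconeogenesis and glycogen, 3 of 12 were lower and 2 higher, with Pck2 at -0.23 (edgeR, adjusted p = 4.11e-08), whereas Pygb at -0.07 did not pass (adjusted p = 0.0661). With the offset for exon length or main transcript length Pygb was at -0.12 and -0.18 and passed (edgeR, adjusted p = 0.00285 and 1.91e-05). The main transcript offset also moved Pdk1 to 0.10, Pdhb to -0.10, Taldo1 to -0.09 and Bsg to -0.14, all still called by edgeR. The exon length offset moved Tkt to -0.41, Pck2 to -0.41, Taldo1 to -0.12, Pdk1 to 0.12 and Bsg to -0.13, also all still called, and the GC offset moved Pdhb to -0.29.

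Genes of the hypoxia-inducible factor, a regulator known for driving glycolytic genes, and its targets outside glycolysis had 3 lower and 5 higher of 12. With the main transcript offset the balance turned, to 4 lower and 3 higher, as Hif1a, P4ha1 and Kdm3a did not pass (edgeR, adjusted p = 0.0753, 0.0729 and 0.055), Egln1 was called lower (adjusted p = 0.034) and Bnip3 higher. With the exon length and GC offsets there were 3 lower and 4 higher. Vegfa had 571, 595 and 579 CPM in fresh and 750, 711 and 682 CPM in RNA-Best libraries, for a log2 fold change of 0.28 (edgeR, adjusted p = 6.72e-10). Bnip3 at 0.07 did not pass (adjusted p = 0.0817), but with the offset for exon length or main transcript length it was at 0.15 and 0.14 and passed (edgeR, adjusted p = 0.000514 and 0.000852).

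**Figure D5:**
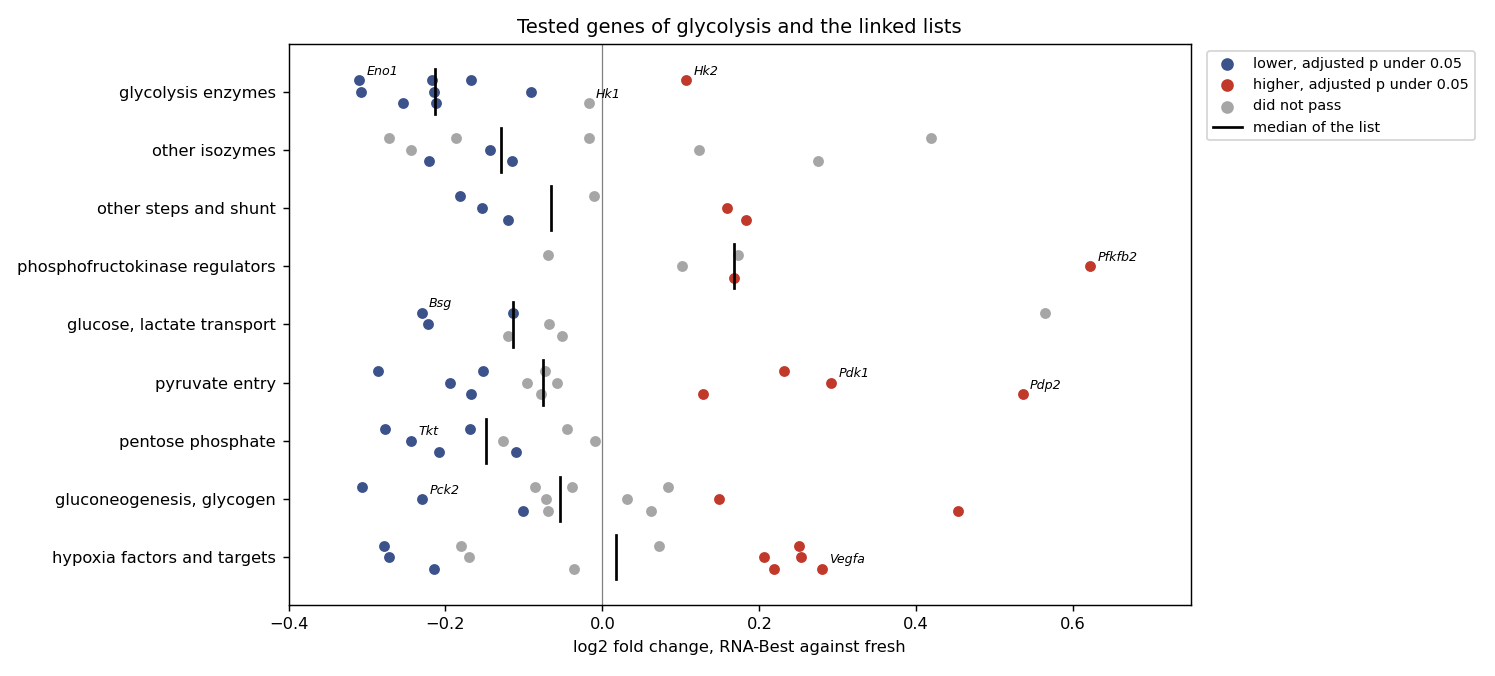
Log2 fold change of RNA-Best against fresh (horizontal axis) for every tested gene of the set and of the 8 lists (vertical axis), coloured by call (blue lower, red higher, grey did not pass), with a bar at the median of each. The enzymes lie between -0.31 and 0.11, and Pfkfb2 at 0.62 is the largest.

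The core letters bound by the hypoxia-inducible factor are ACGTG or GCGTG, searched on both strands in the RefSeq promoters (GRCm38.p6, 250 bases before to 50 after the start). They were found in 43.8% of 32851 promoters, and in 13 of the 17 promoters of the 10 genes, with Tpi1 the only gene without a match. Some promoters of Aldoa and of Eno1 overlap and share matches, so the 17 are not separate. The share of all genes with a match in any promoter was not counted, so enrichment in the set was not tested. Ldha had 7 matches in one promoter, of which CACGTG counts on both strands, and 3.86% of all promoters had 4 or more. Shown are the promoter with the most matches, that of the gene called higher and that of the gene without a match. Matches are in capitals, and the promoters lie at chr7:46845554-46845853 (plus), chr6:82774405-82774704 (minus) and chr6:124814109-124814408 (minus).
Ldha: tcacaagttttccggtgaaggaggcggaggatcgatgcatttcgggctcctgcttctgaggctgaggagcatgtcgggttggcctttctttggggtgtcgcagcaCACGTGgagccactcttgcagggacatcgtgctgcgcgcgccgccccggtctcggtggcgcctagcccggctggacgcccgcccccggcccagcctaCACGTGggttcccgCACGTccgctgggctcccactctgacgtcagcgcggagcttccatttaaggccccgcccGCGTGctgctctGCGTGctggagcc
Hk2: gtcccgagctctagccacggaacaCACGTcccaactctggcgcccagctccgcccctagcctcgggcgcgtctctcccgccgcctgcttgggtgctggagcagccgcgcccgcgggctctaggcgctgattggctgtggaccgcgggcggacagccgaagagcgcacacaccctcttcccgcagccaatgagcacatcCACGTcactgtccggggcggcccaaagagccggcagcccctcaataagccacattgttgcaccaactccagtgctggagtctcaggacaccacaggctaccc
Tpi1: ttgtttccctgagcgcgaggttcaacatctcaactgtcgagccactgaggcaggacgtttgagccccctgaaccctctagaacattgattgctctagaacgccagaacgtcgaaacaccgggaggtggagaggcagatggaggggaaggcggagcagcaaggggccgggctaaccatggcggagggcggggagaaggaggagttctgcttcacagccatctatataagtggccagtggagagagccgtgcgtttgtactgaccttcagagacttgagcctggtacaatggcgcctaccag
Matches stood in the promoters of genes that fell, of Hk2, which was called higher, and of Hk1, which did not pass, and a match is a description of letters, not of binding.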

How the data were processed

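Bulk poly-A RNA-seq libraries of LβT2 cells were used, 3 fresh and 3 preserved in RNA-Best. The authors aligned reads to GRCm38 with STAR 2.5.1b and the GENCODE M8 annotation and counted them with featureCounts 1.5.0-p1. What the authors deposited are estimated counts for each gene without scaling for library size. In each library 9.36% to 16.3% of values departed from whole numbers by over 0.001. The strand setting and the handling of reads with several matches are not given in the sources used here. Divided reads make values of genes with near-identical copies, of overlapping genes and of antisense genes uncertain.

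Counts were rounded and tested in R 4.3.3 with the edgeR 4.0.16 quasi-likelihood test, TMM scaling (factors 0.994 to 1.01) and filterByExpr with a minimum count of 10, over 14736 genes, with the group as the only term. The study names voom, which was run as an alternative with limma 3.58.1, beside DESeq2 1.42.0. CPM used column totals of the unrounded values. Lengths, positions and transcripts came from GENCODE M21 on the same assembly (46488 genes matched), and copies were found with BLAST 2.17.0 at 95% identity over 200 bases. Length and GC offsets were fitted per library by loess (span 0.5). The script was tested on simulated data, where it called 56.6% of 1.2-fold and 91.9% of 2-fold changes over genes of all levels. A count of 0 allows up to 3 counts, from 0.0632 to 0.611 CPM by depth, for counting error only.

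The members and lists were chosen with earlier results of these data known. Named are the 10 members, in each further list the 2 genes of highest mean CPM and any called gene that changed by 0.5 or more on the log2 scale, and at most 3 copies of each member. Scaling, filter, test, fold change threshold, replicate block, length and GC offsets, thinning, copies and single libraries were varied; the main transcript offset and the copies at 90% identity were chosen after seeing the data. Genes outside this rule that are named were chosen after their values were seen. Spike-ins and single-cell libraries were not analysed here.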

Additional observations from a re-analysis of the deposited data

How the results depend on the processing

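Of 200 values of a member under an alternative, 175 kept their direction and their side of the threshold, 18 kept the direction and no longer passed, 3 newly passed and 4 changed sign. Changed signs were Hk1 at 0.0275 with the GC offset, Hk2 at -0.11 with the main transcript length offset, and Pgam1 at 0.0045 with the exon length offset and at 0.0034 with that offset and the replicate block. Against a 1.2-fold change (glmTreat) 0 members were lower and 0 higher, 0 of the linked genes were lower and 2 higher, and of all genes 416 were lower and 1277 higher. The count of members higher was 0 with no filter, with the exon length offset alone or with the replicate block, and with the main transcript length offset. Of all genes, 2342, 2299 and 2264 were higher with the exon length offset, that offset with the replicate block, and the main transcript length offset, and with the latter 9 linked genes were higher. Leaving out single libraries gave 7 to 8 members lower and 0 to 1 higher, 17 to 25 linked genes lower and 13 to 16 higher, and 2971 to 3518 of all genes lower and 3386 to 3755 higher. At 90% identity the copies numbered 268 in place of 127. The cause of these changes was not tested.

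With the replicate block alone, 8 members were lower and 1 was higher, and 3659 of all genes were lower and 3813 higher. Same-numbered libraries did not deviate together (correlations of -0.00844, 0.0121 and -0.0077), and the block is not a pairing of libraries. The shallowest library held 4909418 counts, where a count of 0 allows up to 0.611 CPM.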
